A study of Mus musculus with 58 samples.

Results

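The conjugating enzymes of the glutathione S-transferase (GST), UDP-glucuronosyltransferase (UGT) and sulfotransferase (SULT) families were followed in 3 tissues (lung, liver, forestomach) of male Muta™Mouse animals given indeno(123,cd)pyrene (IP). Members were taken as all genes whose RefSeq symbol, found through the accession printed for each probe, starts with Gsta, Gstm, Gstp, Gstt, Gstk, Gsto, Gstz, Mgst, Ugt1, Ugt2, Ugt3 or Sult. Of 70 such symbols, 59 had a probe, out of 20668 named genes on the array. They were 25 GST genes (microsomal GSTs included), 14 UGT genes and 20 SULT genes. Where a gene had more than 1 probe, as 19 members did, the brightest was used. The 11 without a matched probe were 3 pseudogenes and Sult2a5, Ugt1a1, Ugt1a2, Ugt1a5, Ugt1a7c, Ugt1a8, Ugt1a9 and Ugt2a2, which were not analysed here. The symbol alone made a gene a member, whereas its probe was taken by the measured Cy5 signal over all 58 arrays. The list of prefixes was set with earlier results of these data known.

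Muta™Mouse is a transgenic strain that carries a bacterial reporter gene for scoring mutations in every tissue, and all mice in every group carried it. The males were about 13 weeks old and received olive oil alone (vehicle) or IP in olive oil by daily gavage for 28 days, and their tissues were taken 72 h after the last dose. The low dose was 12.5 mg/kg-bw/day, the middle dose 25 and the top dose 50. Lung was measured in 5 mice of each group, and liver and forestomach were each measured in 4 vehicle mice and in 5 mice of each dose. The total was 58 two-colour arrays, each with the RNA of 1 tissue of 1 mouse in Cy5 and a universal mouse reference RNA, pooled from cell lines, in Cy3. All values below are log2 ratios of tissue over this reference unless a difference is named, so the level of 1 gene can be compared between mice and tissues but not with that of another gene. The RNA came from whole pieces of tissue, in which fewer cells of a type and less RNA per cell cannot be told apart.

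GSTs join glutathione to electrophiles, UGTs join glucuronic acid to hydroxyl and other nucleophilic groups, and SULTs transfer a sulfonate group from the donor PAPS. Together they make lipophilic compounds and their oxidised metabolites soluble enough to be excreted. For polycyclic aromatic hydrocarbons such as IP, cytochrome P450 enzymes first form epoxides, phenols and diols. GSTs can then take up the epoxides and UGTs the phenols, whereas sulfonation of some benzylic alcohols gives reactive esters. Several of these genes (Gsta1 and the Ugt1a6 genes in rodents) are textbook members of the battery controlled by the aryl hydrocarbon receptor (AhR) and by NRF2. The latter is a transcription factor that responds to electrophile stress.

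The AhR binds the core GCGTG, and NRF2 binds antioxidant elements whose core is TGACNNNGC. Both were searched on both strands of the 250 bases before the RefSeq start (build GRCm38.p6) of the 51 members with a promoter entry. GCGTG stood in 7 of them (13.7%), against 28.2% of 27025 promoters of the same length. TGACNNNGC stood in 3 (5.88%), against 10.1%. The promoters below are shown because their genes belong to the battery whose dose response is given further on. In each the match is in capitals. They are Gsta2 (chr9:78347146-78347395, minus strand), with GCGTG 7 to 3 bases before the start, Gstm1 (chr3:108017974-108018223, minus strand), with GCGTG 76 to 72 bases before it, and Gsta3 (chr1:21240335-21240584, plus strand), with an antioxidant core 121 to 113 bases before it.
Gsta2: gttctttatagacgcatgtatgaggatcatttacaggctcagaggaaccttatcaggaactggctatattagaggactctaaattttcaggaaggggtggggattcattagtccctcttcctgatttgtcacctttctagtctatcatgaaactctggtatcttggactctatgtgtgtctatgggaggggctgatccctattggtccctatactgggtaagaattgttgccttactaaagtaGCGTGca
Gstm1: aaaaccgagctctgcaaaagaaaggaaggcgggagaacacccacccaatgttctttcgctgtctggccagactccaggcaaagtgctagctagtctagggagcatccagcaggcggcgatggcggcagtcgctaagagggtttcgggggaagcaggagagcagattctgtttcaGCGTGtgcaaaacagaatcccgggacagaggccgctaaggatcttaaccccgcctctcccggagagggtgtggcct
Gsta3: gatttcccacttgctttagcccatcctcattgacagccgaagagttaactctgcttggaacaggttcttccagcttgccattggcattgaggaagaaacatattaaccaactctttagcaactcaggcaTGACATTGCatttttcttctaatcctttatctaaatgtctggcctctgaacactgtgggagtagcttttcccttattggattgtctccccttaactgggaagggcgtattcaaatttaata
Of the battery, Gstp1 (GCGTG 13 to 9 bases before the start) and Mgst1 (an antioxidant core 56 to 48 bases before it) also held a match and are not printed. A match of these letters is a description of the sequence and shows no binding.

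Between 37.7% and 90.7% of the probes lay well above background on an array. Of the 59 members, 31 were above background on every lung array, 43 on every liver array and 29 on every forestomach array, whereas 12, among them 5 of the Sult2a genes and the Sult3a and Sult6b genes, were above background on fewer than 1 in 2 arrays of each tissue. The vehicle arrays carried the defining transcripts of their labelled tissue, although some forestomach arrays also held those of glandular stomach, as given further on. Albumin (Alb) averaged 7.59 in liver, 0.22 in lung and 1.56 in forestomach, surfactant protein C (Sftpc) averaged 7.86 in lung, and keratin 13 (Krt13), of squamous epithelium, averaged 5.38 in forestomach. Lung and forestomach arrays shared 5 slides, while the liver arrays lay on 3 others that were processed with another version of the scanner software, so that liver and slide cannot be told apart. A response to IP was measurable outside the members in lung, while in liver and forestomach no probe of the array was called at any dose. Nqo1, another gene listed as a sign of exposure, did not pass the thresholds in lung. In lung at 50 mg/kg-bw/day Ahrr, the AhR repressor, was higher by 2.50 log2 units (SE 0.28, limma adjusted p = 0.000363) and Cyp1b1 by 3.64 (SE 0.45, adjusted p = 0.00145).

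In vehicle mice, the conjugating enzymes differed between tissues in a larger share than the probes of the array as a whole. A member was called different where the limma p, adjusted by Benjamini and Hochberg over all 55681 probes, was at most 0.05 and the fold change at least 1.5. Between liver and lung 40 members (67.8%) were called, against 26.8% of all probes, and 38 of these were higher in liver, where 11.1% of all probes were. The 2 lower in liver, against 15.7% of all probes, were the microsomal GSTs Mgst2 and Mgst3. Between liver and forestomach 42 members (71.2%) were called, against 22.7% of all probes, 32 higher in liver (9.89% of all probes) and 10 higher in forestomach (12.8%). Between lung and forestomach 28 members (47.5%) were called, against 19.5%, of which 7 were higher in lung (10.6% of all probes) and 21 lower (8.90%). The median difference over the members was 2.25 log2 units for liver over lung and 1.56 for liver over forestomach, while the medians over all probes were 0.01 and 0.00. For lung over forestomach it was −0.26, against −0.01 over all probes.

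Of the members, 32 (54.2%) were called higher in liver than in both other tissues, 10 (16.9%) were highest in forestomach in this sense and 0 in lung. Over all probes the shares were 7.37%, 4.92% and 7.73%. The liver-highest genes were 8 of 9 Ugt2, both Ugt3, 2 of 3 Ugt1, 5 of 7 Gstm, all 3 Gstp, 3 of 4 Gstt, 5 of 20 SULT genes, Gsta3, Gstk1, Gstz1 and Mgst1. The forestomach-highest genes were Gsta1, Gsta2, Gsta4, Gstm5, Gsto1, Gsto2, Mgst2, Mgst3, Sult2b1 and Sult4a1.

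**Figure D1:**
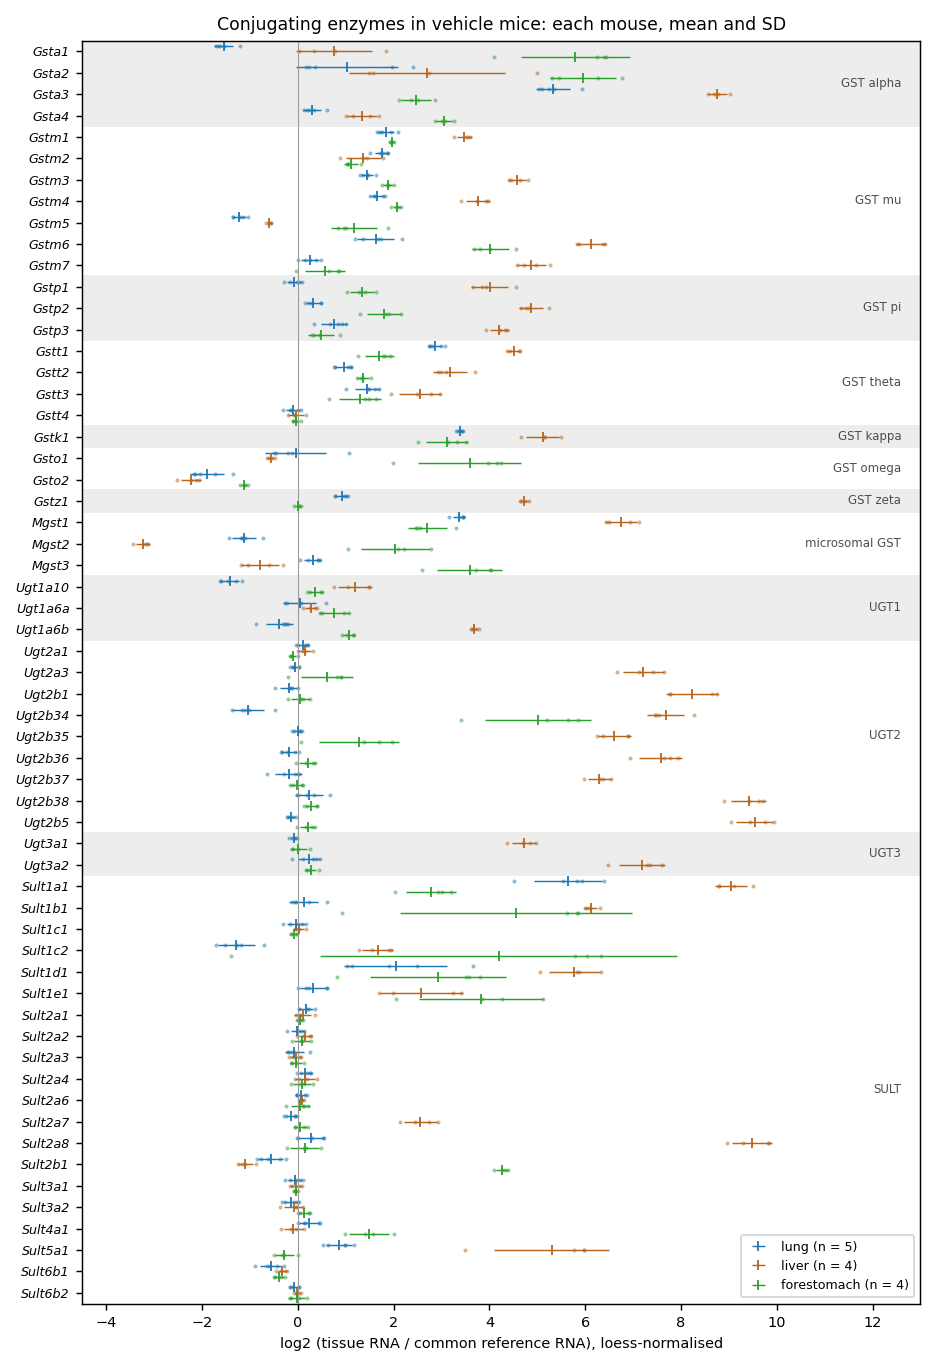
Log2 ratio of tissue over the common reference (x axis, loess-normalized) of the 59 conjugating enzyme genes (rows, by class) in vehicle mice. Points are single mice, ticks with bars are the mean ± SD (lung n = 5, liver n = 4, forestomach n = 4). The liver points lie to the right of both other tissues for most UGT genes and for the Gstp genes, and the forestomach points lie to the right for Gsta1, Gsta2, Gsto1, Mgst2, Mgst3 and Sult2b1.

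The Ugt2 and Ugt3 genes had the largest class medians for liver over lung, 7.76 and 5.88. Ugt2b5, a steroid and xenobiotic glucuronosyltransferase gene, read 9.75, 9.94, 9.05 and 9.44 in the 4 vehicle livers, between −0.01 and 0.37 in forestomach and between −0.24 and −0.03 in lung. Its probe was not well above background in lung and forestomach, so its level in liver was at least 487-fold that in lung and at least 432-fold that in forestomach (limma adjusted p = 1.14e-39 and 4.04e-38). These bounds set the mean Cy5 signal in liver against the dimmest signal that still lay well above background on the arrays of the other tissue. Ugt2b38 read 8.90 to 9.71 in liver and at most 0.68 in any other vehicle array, a difference of 9.18 from lung and 9.13 from forestomach. Of the vehicle arrays, 3 of 5 in lung and 1 of 4 in forestomach measured it above background, so these differences are taken mostly against probes near background. Ugt2b36 read 6.94 to 7.94 in liver and at most 0.36 in the other tissues, on none of whose vehicle arrays it was well above background. The livers stood apart from every other vehicle array for these 3 genes.

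Ugt2b34 differed from Ugt2b5, Ugt2b36 and Ugt2b38 in being high in forestomach as well. It read 7.54, 8.26, 7.47 and 7.47 in liver, 3.41, 5.84, 5.20 and 5.63 in forestomach and −1.17, −1.38, −1.11, −1.02 and −0.48 in lung. The 3 tissues did not overlap, and each pair differed beyond the spread between mice, by 8.72 for liver over lung (SE 0.48, limma adjusted p = 3.89e-22), 2.66 for liver over forestomach (SE 0.50, adjusted p = 1.74e-05) and −6.06 for lung over forestomach (SE 0.48, adjusted p = 1.52e-15). Only 1 of the 5 vehicle lung arrays measured Ugt2b34 above background, so the differences from lung are taken against a level near background. Ugt1a6b, one of the Ugt1a forms that take planar phenols, showed the same order at a smaller size, with 3.61 to 3.79 in liver, 0.91 to 1.18 in forestomach and −0.87 to −0.21 in lung. Its level was 16.8-fold higher in liver than in lung (adjusted p = 6.41e-29) and 6.14-fold higher in liver than in forestomach (adjusted p = 8.8e-20). The order of lung and forestomach rested on the probe used, with a difference of −1.45. The other Ugt1a6b probe gave −0.17 (limma adjusted p = 0.676). Ugt2a1, the olfactory form, was not well above background in most arrays of any tissue.

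Among the SULT genes the order of the tissues changed from gene to gene. Sult2a8, which sulfonates bile acids in mouse liver, read 9.85, 9.82, 8.97 and 9.30 in liver, −0.23 to 0.49 in forestomach and −0.02 to 0.55 in lung, a 594-fold difference from lung and a 650-fold difference from forestomach (limma adjusted p = 1.72e-39 and 1.13e-38). It was above background on 3 of 5 vehicle lung and 2 of 4 vehicle forestomach arrays, so both folds are taken against levels near background. Sult1a1, the phenol sulfotransferase, followed the order liver, lung, forestomach. It read 9.11, 9.51, 8.80 and 8.80 in liver, 5.82, 6.39, 4.51, 5.94 and 5.55 in lung and 2.03, 3.20, 2.92 and 3.00 in forestomach. The groups did not overlap, with a difference of 3.41 for liver over lung (SE 0.45, limma adjusted p = 6.38e-09) and 7.24-fold more in lung than in forestomach (adjusted p = 7.62e-07).

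Sult2b1, the cholesterol sulfotransferase of squamous epithelium, read 4.40, 4.10, 4.26 and 4.32 in forestomach, −0.85 to −0.25 in lung and −1.25 to −0.88 in liver. Forestomach was 28.5-fold higher than lung (limma adjusted p = 1.61e-31) and higher than liver by a ratio of 41.3 (adjusted p = 5.3e-33), where the probe was not well above background on any vehicle array. Sult1e1, the oestrogen sulfotransferase, was spread widely within tissues. It read 5.12, 2.05, 3.85 and 4.27 in forestomach, 1.70, 3.40, 3.24 and 1.98 in liver and −0.00 to 0.62 in lung. Forestomach and liver overlapped, and lung lay below both, 11.3-fold against forestomach (limma adjusted p = 1.29e-06), and liver exceeded it by 2.25 (adjusted p = 0.00087), with 3 of 5 vehicle lung arrays above background. Sult5a1 read 5.97, 5.77, 3.49 and 5.97 in liver and 1.16 or less elsewhere. In contrast, 5 of the 7 measured Sult2a genes, both Sult3a genes and both Sult1c genes did not have a single highest tissue by the thresholds.

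The alpha-class GSTs were divided between liver and forestomach. Gsta3, the alpha form with high activity towards aflatoxin epoxide, read 8.68, 9.03, 8.56 and 8.78 in liver, 5.34, 5.93, 5.03, 5.11 and 5.25 in lung and 2.12, 2.86, 2.37 and 2.52 in forestomach. The 3 tissues did not overlap, and the differences were 6.29 for liver over forestomach (SE 0.20, limma adjusted p = 1.07e-32), 3.43 for liver over lung (SE 0.19, adjusted p = 2.49e-22) and 2.86 for lung over forestomach (SE 0.19, adjusted p = 1.03e-18). The other alpha genes ran the other way. Gsta1 read 4.10, 6.25, 6.43 and 6.40 in forestomach, 0.02 to 1.85 in liver and −1.70 to −1.20 in lung, so that forestomach was 33.0-fold higher than liver (adjusted p = 7.6e-10) and 163-fold higher than lung (adjusted p = 1.51e-15). Gsta2 read 5.30, 6.76, 6.27 and 5.46 in forestomach, 5.00 in liver mouse 3 but 2.74 or less in the other livers, and 0.18 to 2.41 in lung, and liver overlapped lung. Gsta1 and Gsta2 are close copies whose probes may share signal, and the Gsta1 probe carried another accession in the liver files than in those of lung and forestomach.

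The pi-class genes were all higher in liver than in lung and forestomach. Gstp2 read 4.77, 5.23, 4.66 and 4.83 in liver, 1.30 to 2.15 in forestomach and 0.14 to 0.49 in lung, a difference of 4.55 from lung (SE 0.30, limma adjusted p = 1.13e-18). Gstp1 and Gstp3 differed from lung by 4.08 and 3.45, and these 3 near-identical genes may share signal. Among the mu-class genes Gstm7 was higher in liver than in lung by 4.62 (SE 0.29), whereas Gstm2, with 1.37 ± 0.36 (SD, n = 4) in liver, differed from lung by −0.39 (adjusted p = 0.0273), under the fold threshold, and from forestomach by 0.26 (adjusted p = 0.228). For Gstm2 lung, with 1.75 ± 0.15 (n = 5), exceeded forestomach, with 1.11 ± 0.14 (n = 4), by 0.64 (1.56-fold, adjusted p = 0.000288). The Gstm2 probes gave opposite calls between liver and lung, from −0.67 to 0.70. This was the only opposite call among 57 comparisons of the 19 members with several probes, but in 23 of them the probes differed by more than 1 log2 unit. Ugt1a10 was higher in liver than in forestomach by 0.84 on the probe used, whereas its other probe gave −0.54. For Ugt3a2 liver exceeded lung by 6.95 on the probe used and by 2.72 on the other.

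Gstz1, which isomerizes maleylacetoacetate in tyrosine breakdown, read 4.64 to 4.82 in liver, 0.78 to 1.06 in lung and −0.07 to 0.06 in forestomach, and no groups overlapped. Gstt1, the theta form that conjugates small halogenated compounds, showed the same order, with 4.36 to 4.63 in liver, 2.75 to 3.07 in lung and 1.26 to 1.93 in forestomach. Gsto1, the omega form with thioltransferase activity, read 1.98, 4.25, 4.16 and 3.97 in forestomach, −0.64 to −0.48 in liver and −0.51 to 1.06 in lung. Forestomach exceeded liver by 17.8-fold (limma adjusted p = 8.71e-09) and lung by 12.4-fold (adjusted p = 9.15e-08).

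The microsomal GSTs, membrane proteins of another fold than the soluble GSTs, were divided as well. Mgst1, the abundant detoxifying form, read 6.93, 7.13, 6.51 and 6.43 in liver and 3.45 or less in the other tissues. Mgst2, which can also make leukotriene C4, read 1.04, 2.78, 2.23 and 2.09 in forestomach, −1.44 to −0.73 in lung and −3.44 to −3.13 in liver. It was 38.5-fold lower in liver than in forestomach (limma adjusted p = 1.32e-17) and 4.30-fold lower than in lung (adjusted p = 1.47e-06). Mgst3 read 2.59, 4.04, 4.00 and 3.72 in forestomach, 0.06 to 0.46 in lung and −1.18 to −0.32 in liver. Its difference between liver and lung of −1.10 (SE 0.43, adjusted p = 0.0346) lost its call when any 1 of 5 arrays was left out (lung vehicle mouse 1, 2 or 4, or liver vehicle mouse 1 or 5), where it ranged from −1.07 to −0.97 (adjusted p = 0.0575 to 0.104), and in the Cy5 signal alone (−0.77, adjusted p = 0.182).

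Lung exceeded forestomach in 7 members and exceeded liver only in Mgst2 and Mgst3. Apart from Sult1a1, Gsta3, Gstt1 and Gstm2, the 7 were Gstz1 with a difference of 0.91, Mgst1 with 0.67 (limma adjusted p = 0.0407) and Sult5a1 with 1.14 (SE 0.39, adjusted p = 0.0204), for which 1 of 4 vehicle forestomach arrays was above background. The Sult5a1 call was lost in the Cy5 signal alone (0.87, limma adjusted p = 0.0709), without forestomach vehicle mouse 3 (1.07, adjusted p = 0.0560) and without the 3 vehicle arrays that held glandular stomach markers, described next (0.86, adjusted p = 0.471). The Mgst1 call was lost without those 3 arrays as well (0.06, adjusted p = 0.923). Both omega genes, all 3 Ugt1 genes on the probes used, 3 of 4 alpha genes and 2 of 3 pi genes were lower in lung than in forestomach. Without the arrays that held these markers Gstp1 gave −1.10 in place of −1.40, and Gstp2 gave −0.97 in place of −1.48. Gsto2 gave −0.84 in place of −0.77. That fit leaves 1 vehicle forestomach array, so it cannot decide whether these differences hold.

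The forestomach values were not of 1 kind. Of the 19 forestomach arrays, 10 held transcripts of the glandular stomach, a neighbouring tissue that the label does not name. The mean log2 ratio of 11 measured markers of glandular stomach lay between 4.85 and 6.81 on these 10 arrays and between 0.56 and 1.75 on the other 9, against 0.56 to 1.04 in lung and −0.01 to 0.16 in liver. They were 3 of 4 vehicle, 2 of 5 low-dose, 2 of 5 middle-dose and 3 of 5 high-dose arrays, and vehicle mouse 1 was the only vehicle array without them. For 7 members (11.9%) the 10 arrays lay wholly above the other 9, against 0.994% of 55529 probes with values. For 0 members they lay wholly below, against 0.187%.

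Sult1c2, a phenol sulfotransferase, moved the most with these markers. It read 3.71 to 6.34 on the 10 arrays with markers and −1.42 to −0.47 on the 9 without. Sult1b1, the thyroid hormone sulfotransferase, read 3.37 to 6.73 with them and 0.33 to 1.05 without. Neither gene overlapped between the sets of arrays.

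The other 5 were Gsta1 (5.23 to 6.64 with markers, 3.70 to 4.77 without), Mgst3 (3.18 to 4.88, 2.01 to 2.86), Ugt2b35 (0.44 to 2.57, −0.18 to 0.16), Mgst2 (1.84 to 3.25, 0.93 to 1.47) and Gstk1 (2.81 to 3.55, 2.33 to 2.66). Sult1d1, with a difference of 2.86, Gsto1, with 2.11, Ugt2b34, with 1.95, and Gsta2, with 1.41, overlapped between the sets but also differed in their means. Other members overlapped with a lower mean on the arrays with markers. Among them were Sult1e1 (−1.45), Gstm6 (−0.81), Mgst1 (−0.77), Gstm1 (−0.70), Gstm4 (−0.68) and Gstm3 (−0.62). With the 10 arrays left out, an alternative chosen after seeing the data that leaves 1 vehicle array, the difference of Gsta1 was −3.35 for liver over forestomach and −5.65 for lung over forestomach (limma adjusted p = 2.91e-08), and that of Sult2b1 −5.50 for liver over forestomach. Sult1c2 then differed between lung and forestomach by 0.11 in place of −5.47, and Sult1b1 by −0.80 in place of −4.44. For liver over forestomach Sult1c2 gave 3.06 in place of −2.52, and Sult1b1 gave 5.19 in place of 1.56. Ugt2b34 then gave −4.44 for lung over forestomach in place of −6.06 and 4.27 for liver over forestomach in place of 2.66. For liver over forestomach Mgst2 gave −4.27 in place of −5.27, Mgst3 −3.38 in place of −4.37 and Gsto1 −2.55 in place of −4.16. For lung over forestomach Sult1a1 gave 3.61 in place of 2.86, Sult1e1 −4.79 in place of −3.50 and Gsto1 −2.03 in place of −3.64. For lung over forestomach 22 members were then called, 20 of them among the original 28.

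**Figure D2:**
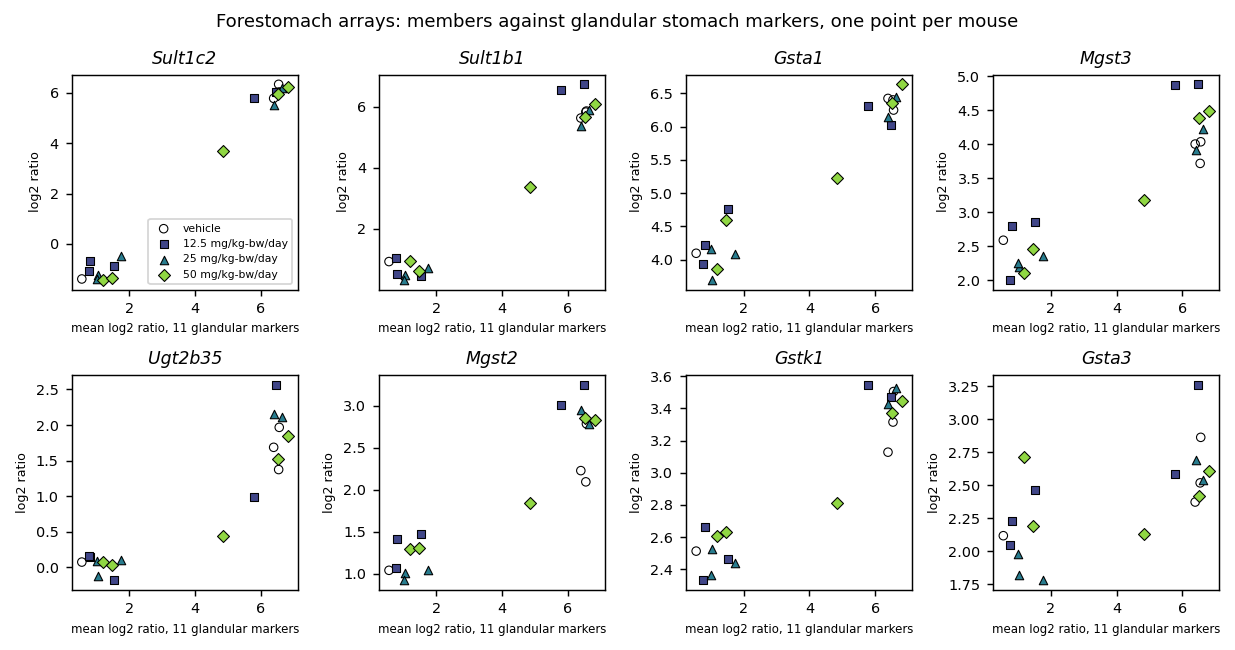
Log2 ratio over the common reference of 8 conjugating enzyme genes (y axis, 1 panel each) against the mean log2 ratio of the 11 glandular stomach markers (x axis) on the 19 forestomach arrays, 1 point per mouse and 1 symbol per dose. The arrays fall into 10 with markers at 4.85 or above and 9 at 1.75 or below. The 7 genes other than Gsta3 do not overlap between these sets.

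Many members lie beside each other. In the order of GRCm38.p6, 46 measured members fell into 11 runs with at most 3 other protein-coding genes between neighbours. The run of 13 genes on chromosome 5 begins with Ugt2b34 and ends with Sult1b1, Sult1d1 and Sult1e1. Of its 12 measured genes 9 were highest in liver, 0 in forestomach and 3 in no single tissue. On chromosome 3, 5 of the 7 Gstm genes were highest in liver and Gstm5 in forestomach. All 3 Gstp genes on chromosome 19 were highest in liver, and both Gsto genes on that chromosome were highest in forestomach. Gsta4 and Gsta1, neighbours on chromosome 9, were also highest in forestomach, whereas Gsta3 on chromosome 1 was highest in liver. On chromosome 7, 2 of 7 measured Sult2a genes (Sult2a7 and Sult2a8) were highest in liver.

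The genes that supply the cosubstrates of these enzymes were compared as listed. For UDP-glucuronate, 5 of 6 genes were called higher in liver than in lung (11.1% of all probes were) and 4 of 6 higher than in forestomach (9.89%). For glutathione the counts were 8 higher and 1 lower of 14 against lung, and 7 higher and 3 lower against forestomach, where 15.7% and 12.8% of all probes were lower in liver. For PAPS they were 4 higher and 2 lower of 9 against lung, and 4 higher and 3 lower against forestomach. Picked for their roles after their values were seen, Ugdh, which oxidises UDP-glucose, was higher in liver than in lung by 2.53, and its difference between liver and forestomach was 0.16 (limma adjusted p = 0.799). Gclm, the modifier subunit of the enzyme that starts glutathione synthesis, was higher in liver than in lung by 2.70. Papss2, a PAPS synthase, was higher in liver than in lung by 3.42, while Papss1 differed by −0.98. Of the receptors, Nr1i3 (CAR) was higher in liver than in lung by 6.32, and Nfe2l2, which encodes NRF2, was lower in liver than in lung (−1.31) and than in forestomach (−2.46).

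IP changed no conjugating enzyme past the thresholds. None of the 59 members was called at any dose in any tissue, nor on the slope over dose. In lung the shares of all probes called were 0, 0.0126% and 0.0790% at the 3 doses and 0.140% on the slope, and in liver and forestomach 0 probes were called in every comparison with vehicle. At an unadjusted p under 0.05, 4 members (6.78%, 2 higher and 2 lower) passed in lung at the top dose, against 8.81% of all probes. In liver 7 (11.9%, all lower) passed, against 6.84%, and in forestomach 5 (8.47%, all higher), against 3.89%. The slope gave 2 higher and 2 lower in lung (8.81% of all probes), 5 lower in liver (6.96%) and 5 higher in forestomach (4.31%). At the low dose the members past this p were 3 in lung (3.92% of all probes), 0 in liver (2.58%) and 2 in forestomach (4.12%), and at the middle dose they were 3 in lung (6.54%), 1 in liver (4.42%) and 3 in forestomach (3.59%). The median difference of the members at 50 mg/kg-bw/day was 0.03 in lung, −0.21 in liver and −0.02 in forestomach, and that of all probes 0.00, −0.01 and 0.00. The 95% interval of the difference lay within 1.5-fold of no change for 50 members in lung, 27 in liver and 32 in forestomach.

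**Figure D3:**
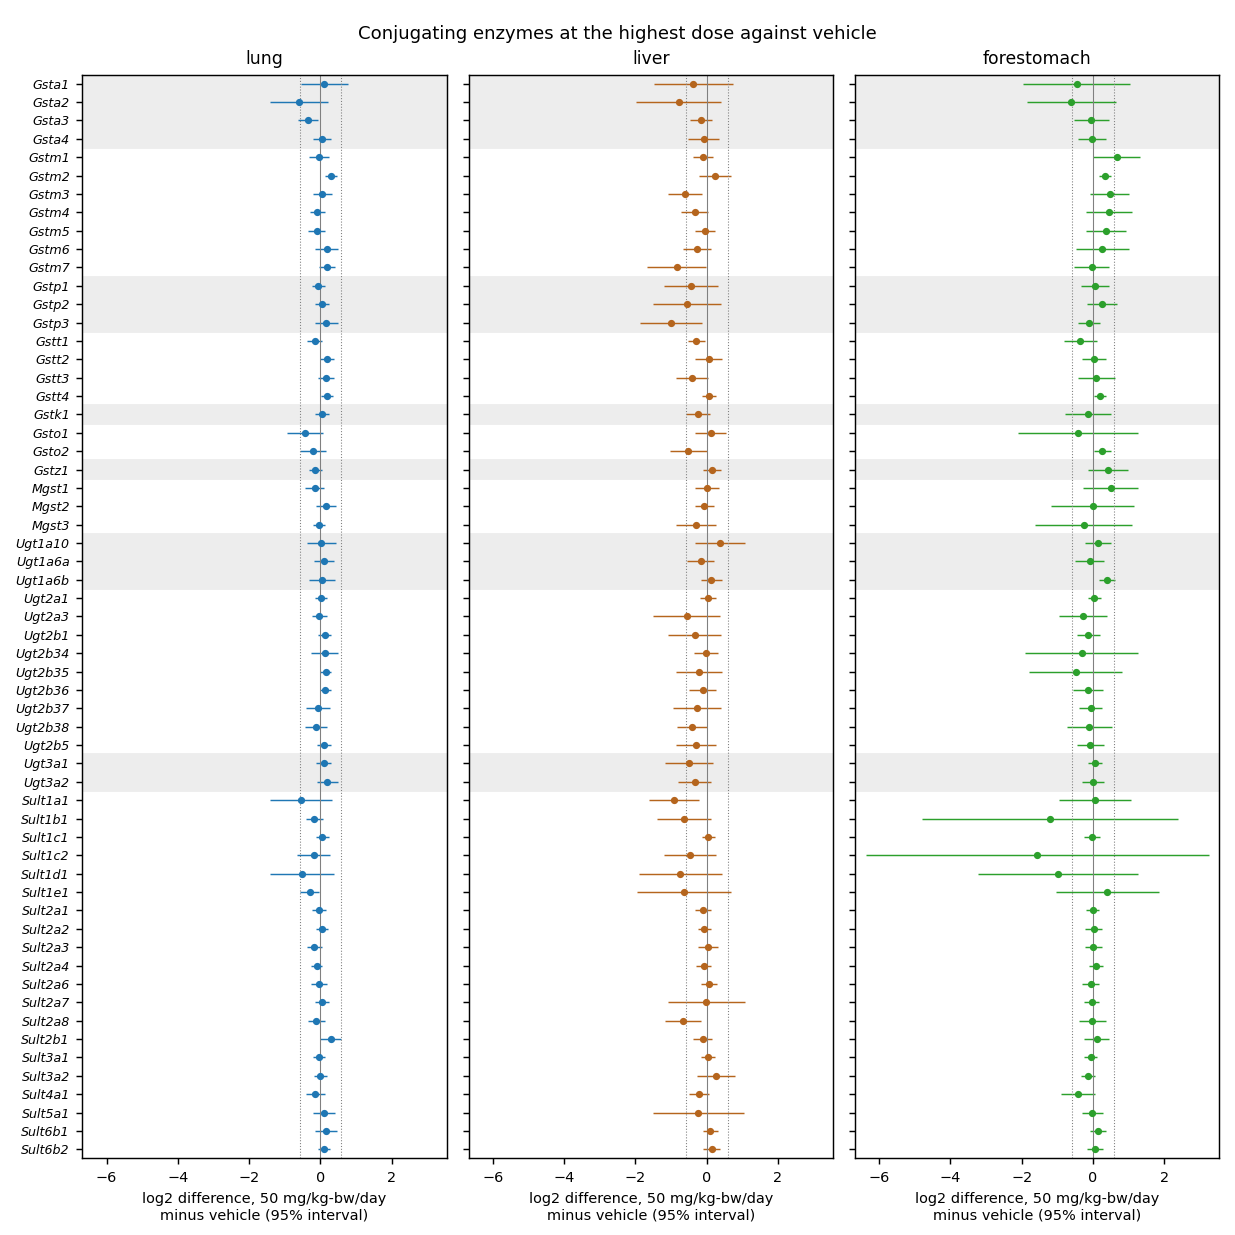
Log2 difference of 50 mg/kg-bw/day minus vehicle (x axis) for the 59 conjugating enzyme genes (rows) in lung, liver and forestomach (panels). Bars are 95% intervals from limma and dotted lines mark 1.5-fold. No gene was called, and 50 intervals in lung, 27 in liver and 32 in forestomach lie between the dotted lines.

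In lung, Gstm2 had the smallest p among the members. It read 1.78, 1.51, 1.72, 1.88 and 1.87 in vehicle mice and 1.95, 2.19, 2.04, 1.99 and 2.05 at 50 mg/kg-bw/day, and the groups did not overlap. The difference was 0.29 (SE 0.08, 95% interval 0.12 to 0.46, limma adjusted p = 0.175). Within the 5 slides that held both groups it ranged from 0.12 to 0.68. Because the groups did not overlap, its sign on each slide was fixed and adds no support. Gsta3 read 5.34, 5.93, 5.03, 5.11 and 5.25 in vehicle mice and 4.97, 4.95, 4.96, 4.83 and 5.16 at the top dose, which overlap. Its difference was −0.36 (SE 0.13, adjusted p = 0.369) and −0.21 without vehicle mouse 2. Gsto1 had a slope of −0.51 per 50 mg/kg-bw/day (SE 0.23, adjusted p = 0.531), or −0.31 without vehicle mouse 5, whose value of 1.06 lay above the others.

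With the slide as a block, an alternative in the same lung arrays, 156 probes were called at the top dose and 708 on the slope, still with 0 members. The smallest adjusted p among the members was then 0.0839 for Gstm2 at the top dose and 0.0887 for Gsta3 on the slope.

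In liver, the 7 members with an unadjusted p under 0.05 were all lower at the top dose. Sult1a1 read 9.11, 9.51, 8.80 and 8.80 in vehicle mice, 9.39, 9.13, 8.94, 7.94 and 9.05 at the low dose, 7.55, 9.25, 8.56, 8.69 and 8.42 at the middle dose and 8.03, 8.83, 8.61, 7.80 and 7.42 at the top dose. The top-dose mice overlapped with the vehicle mice in 1 value (8.83). The difference at the top dose was −0.92 (SE 0.33, 95% interval −1.61 to −0.22, limma adjusted p = 0.718), and it was negative on 3 of 3 slides (−1.28 to −0.60). Gstp3 read 4.32, 3.92, 4.23 and 4.37 in vehicle mice and 2.81, 3.68, 3.97, 3.51 and 2.11 at the top dose, with a slope of −0.91 per 50 mg/kg-bw/day (SE 0.37, adjusted p = 0.687). Gstm7 read 5.26, 4.71, 4.97 and 4.57 in vehicle mice and 3.86, 4.42, 4.45, 4.58 and 2.86 at the top dose, a difference of −0.84 that was −0.55 without mouse 20. For both genes top-dose mouse 20 was the lowest.

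Mouse 20 was the lowest of its group for 29 of the 43 members above background on every liver array, and low-dose mouse 9 for 20. Both belong to 5 liver arrays on which 66.7% to 79.0% of the probes were above background, against 37.7% to 45.0% on the other 14. Mice 13, 15 and 16, also among the 5, were lowest for 13, 14 and 2 of the 43 members. Vehicle mouse 3, on an array with 40.1% above background, was lowest for 17. None of the 5 was a vehicle array, 1 was at the low dose and 2 each were at the middle and the top dose. On mouse 20 and mouse 9 the mean log2 ratio of periportal markers was 5.04 and 5.79, against 5.98 to 7.26 on the other arrays. Their hepatocyte markers averaged 7.90 and 8.57, against 7.45 to 8.46 on the others. The pericentral means of 4.15 and 3.89 lay within the 3.65 to 4.47 of the others. Without the 5 arrays, an alternative chosen after seeing the data, the member median at the top dose was −0.07 in place of −0.21, with 2 members higher and 10 lower at an unadjusted p under 0.05 and 0 called. The slope of Sult1a1 was then −0.75 in place of −0.95, that of Gstp3 −0.47 in place of −0.91 and that of Gstm7 −0.37 in place of −0.81. The sign of the liver median turned with the scaling, being 0.16 after median-centring and 0.01 in the Cy5 signal alone, while the median of all probes moved to 0.06 after median-centring.

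In forestomach, the 5 members with an unadjusted p under 0.05 were all higher at the top dose. Gstm2 read 1.05, 1.02, 1.32 and 1.05 in vehicle mice and 1.53, 1.56, 1.28, 1.44 and 1.45 at the top dose, so that vehicle mouse 3 alone lay within the treated range. The difference was 0.34 (SE 0.08, 95% interval 0.16 to 0.51, limma adjusted p = 1). Ugt1a6b read 1.16, 0.91, 1.18 and 1.03 in vehicle mice and 1.22 to 1.70 at the top dose, and the groups did not overlap. Its difference was 0.38 (SE 0.11, limma adjusted p = 1). Gstm1, a broadly expressed mu form, read 1.97, 2.02, 1.93 and 1.92 in vehicle mice, 1.45, 1.73, 2.33, 2.93 and 1.15 at the low dose, 3.03, 3.19, 2.19, 2.58 and 2.10 at the middle dose and 2.98, 3.26, 2.42, 2.20 and 2.26 at the top dose. The low-dose mice lay on both sides of the vehicle mice, and all mice of the higher doses lay above them. The difference at the top dose was 0.66 (SE 0.31, 95% interval 0.01 to 1.32, limma adjusted p = 1). Without the 10 arrays with glandular stomach markers, which leaves vehicle mouse 1 and top-dose mice 16 and 17, it was 1.15. Gstm2 was then 0.49 in place of 0.34. Ugt1a6b fell to 0.30, Gsto2 to 0.21 and Gstt4 from 0.18 to 0.14. Albumin read 0.80 on vehicle mouse 1, 2.11, 0.70 and 2.64 on the other vehicle arrays, and 1.55 and 2.96 on mice 16 and 17. Whether liver RNA entered these values was not tested. Without mouse 17 the unadjusted limma slope p rose to 0.0599 for Gstm1 and 0.0988 for Gsto2. For Gstm2, Ugt1a6b and Gstt4 it stayed under 0.05 whichever single array was left out. Within 4 slides the difference was 0.12 to 0.54 for Gstm2, 0.07 to 0.78 for Ugt1a6b and 0.28 to 1.25 for Gstm1. For Ugt1a6b and Gstm1 the groups did not overlap, so these signs were fixed and add no support. Other members, among them Gstm3, Gstm4 and Gstm6, were also positive on all 4 slides. Gsto2 had a difference of 0.26.

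**Figure D4:**
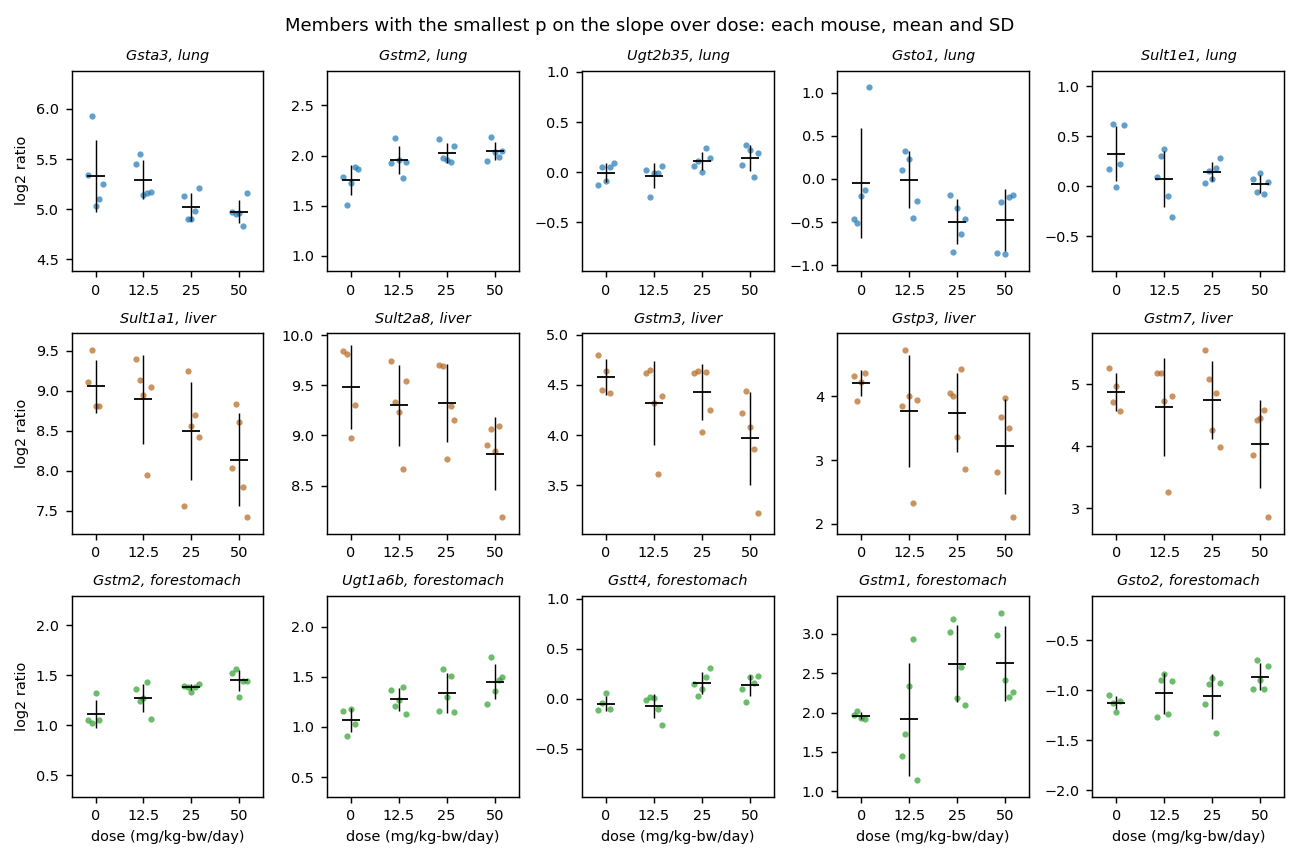
Log2 ratio over the common reference (y axis) against IP dose in mg/kg-bw/day (x axis, evenly spaced) for the 5 conjugating enzyme genes with the smallest slope p in each tissue, lung in the top row, then liver and forestomach. Points are mice and bars are the mean ± SD (n = 5, or 4 in vehicle liver and forestomach). Lung Gstm2 and forestomach Ugt1a6b show top-dose mice wholly above the vehicle mice, and no slope passed an adjusted p of 0.05.

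The effect at the top dose was also compared between tissues. No member was called in any pair, against 0.0162% of all probes for liver against lung, 0.00359% for liver against forestomach and 0.0144% for lung against forestomach. At an unadjusted p under 0.05 the counts were 6 members (10.2%) for liver against lung, 6 (10.2%) for liver against forestomach and 2 (3.39%) for lung against forestomach, where all probes gave 7.07%, 6.15% and 2.92%. In every one of these the effect was lower in the tissue named first. Gstm3 gave −1.07 for liver against forestomach (SE 0.32, limma adjusted p = 0.605), and Gstp3 gave −1.16 for liver against lung (SE 0.39, 95% interval −1.94 to −0.38, adjusted p = 0.518).

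Of 18 listed members of the AhR and NRF2 battery among these families, 15 were measured. In lung, where Ahrr and Cyp1b1 passed the thresholds at 50 mg/kg-bw/day, their differences ranged from −0.60 to 0.29 with a median of 0.04. Gsta1 differed by 0.11, Gsta2 by −0.60 (SE 0.39), Ugt1a6a by 0.10, Ugt1a6b by 0.05, Gstm1 by −0.03 and Gstp1 by −0.06. In liver the battery members ranged from −0.92 to 0.23 and in forestomach from −0.61 to 0.66, with medians of −0.16 and 0.05. Nqo1, a battery gene outside the conjugating families, differed in lung by 0.46 (limma adjusted p = 0.492).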

How the data were processed

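RNA of lung, liver and forestomach was hybridised to 58 dual-colour Agilent arrays. Per the file headers, the intensity values are median spot signals that the authors made with Agilent Feature Extraction (version 10.7.3.1 for 39 arrays, 11.0.1.1 for 19), and the log10 ratios are the same software's background-subtracted, dye-normalized Cy5 over Cy3. The authors also deposited log2 ratios, which are LOWESS-normalized medians. In liver their probe names were displaced against the scanner files (r from −0.007 to 0.007), so they were not used.

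Log2(Cy5/Cy3) of the median signals was normalized by loess within each array without background subtraction, which pulls the ratios of dim probes towards 0, and spots of a probe were averaged. The doses of a tissue shared 1 limma model. Tissues, and the effect at 50 mg/kg-bw/day between tissues, were compared in a joint fit of 12 groups. A called difference needed an adjusted p (Benjamini-Hochberg, 55681 probes) of at most 0.05 and, except for slopes and interactions, a fold change of at least 1.5. The study's methods name MAANOVA, for which limma stood in. The fits ran in limma 3.58.1 under R 4.3.3 (with statmod 1.5.0 and the data.table package, version 1.17.8) and were tested on simulated data. The number of arrays limits the precision.

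The members, gene lists and tests were chosen with earlier results of these data known. Named members are the 5 with the smallest slope p in each tissue, the 4 called with the largest difference in each direction between vehicle tissues, the widest-ranging member of each class and the battery members. Others, such as Ugt2b36, Sult5a1 and the members that moved with the glandular markers, were named after their values were seen. The alternatives were other background corrections and scalings, the Cy5 signal alone, a filter on dim probes, slide and mouse as blocks, a looser threshold and each array left out. The glandular marker and bright liver array alternatives were added after seeing the data. The study's text gives a vehicle group of 4 mice at necropsy, whereas the labels number 5 lung vehicle arrays. This conflict was not resolved, and all 5 were used as 5 mice.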

Additional observations from a re-analysis of the deposited data

Results flagged for a closer look

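Of 133 groups of 4 or 5 mice tested for a single mouse that lies far from the rest of its group, 12 held one, and chance marks about 1 in 20 groups. Of these, 4 were values of forestomach vehicle mouse 1, the vehicle array without glandular stomach markers. It read 4.10 for Gsta1 (others 6.25 to 6.43), 1.98 for Gsto1 (others 3.97 to 4.25), −1.39 for Sult1c2 (others 5.78 to 6.34) and 3.31 for Mgst1 (others 2.48 to 2.54). Forestomach vehicle mouse 3 read 1.32 for Gstm2 (others 1.02 to 1.05).

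In liver, vehicle mouse 3 read 3.49 for Sult5a1 (others 5.77 to 5.97) and vehicle mouse 2 read 8.26 for Ugt2b34 (others 7.47 to 7.54). Mouse 9 at 12.5 mg/kg-bw/day read 3.27 for Gstm7 (others 4.73 to 5.19), and mouse 20 at 50 mg/kg-bw/day read 8.19 for Sult2a8 (others 8.84 to 9.10).

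In lung, vehicle mouse 5 read 1.06 for Gsto1 (others −0.51 to −0.13). Vehicle mouse 2 read 3.15 for Mgst1 (others 3.37 to 3.45) and −0.87 for Ugt1a6b (others −0.32 to −0.21).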

How the results depend on the processing

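The members called between vehicle tissues numbered 38 to 44 for liver against lung, 40 to 46 for liver against forestomach and 22 to 30 for lung against forestomach over all alternatives, and no member called in both the original and an alternative fit had the opposite direction. Leaving out single arrays gave 39 to 40, 41 to 43 and 25 to 29. After median-centring 38 were called between liver and lung, 32 of them higher in liver.

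No member was called for dose under any alternative except a looser rule (unadjusted p below 0.05, change of 1.2-fold or more). That rule gave 3 in lung at the middle and 3 at the top dose, 1 and 7 in liver at these doses, and 1, 2 and 3 in forestomach at the low, middle and top dose.

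Without the arrays with glandular stomach markers, which leaves 1 vehicle forestomach array, the sign turned for Sult1c2 between lung and forestomach (0.11). It also turned for Sult1c2 between liver and forestomach (−2.52 to 3.06) and for Sult1d1 between lung and forestomach (−0.88 to 1.23). Further members that were not called in the original fit turned between lung and forestomach as well, among them Ugt2a3 (−0.66 to 0.15) and Gstm7 (−0.31 to 0.30). In the Cy5 signal alone it turned for Sult2a8 in liver (0.0689 at 50 mg/kg-bw/day, 0.0891 on the slope) and for Ugt2b35 in lung at 50 mg/kg-bw/day (−0.0047). The causes were not tested.

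Lung, liver and forestomach values carry the same mouse numbers. With the mouse as a block the counts were 40, 42 and 28 between tissues and 0 for the effect at 50 mg/kg-bw/day between tissues, as without it. The median correlation of same-mouse deviations was 0.043 for liver and lung, 0.015 for liver and forestomach and 0.154 for lung and forestomach.

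Most Sult2a, Sult3a and Sult6b genes lay near background in all tissues, and differences there were not detectable with these probes.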
